A study of Homo sapiens with 7 samples.

Results

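The cell cycle genes described here were 41 genes fixed by name, 41 of the 27981 genes listed in at least 1 of 3 single-cell RNA count tables. They fell into 15 genes of replication licensing and S phase, 23 genes of G2 and mitosis, and 3 genes of entry from G1, and all 41 were listed in every table. The cells were cardiac cells differentiated from the established human embryonic stem cell line H1. There were 3 groups of 1 library each: day 11, for which the labels name no treatment, day 15 DMSO (the vehicle) and day 15 CHIR. CHIR stands for CHIR99021, which turns on canonical Wnt signalling by inhibiting GSK3, and its dose and time of addition were not given in the sources used here. Chromatin immunoprecipitation for H3K27ac from the CHIR cells was not used here. With 1 library per group there is no replicate check on any difference. No p-value is given, and every interval below covers counting error only.

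A dividing cell first licenses its replication origins, when ORC, CDC6 and CDT1 load the ring of MCM2 to MCM7 onto DNA, and then copies the DNA with the help of PCNA, the GINS complex and nucleotide-supplying enzymes. Genes of this step are classic targets of E2F transcription factors, which cyclin D with CDK4 or CDK6 and then cyclin E with CDK2 release from the retinoblastoma protein. Genes of G2 and mitosis peak later. They are held down in resting cells by the DREAM complex and switched on by the MuvB core with B-MYB and FOXM1. These complexes act through the cell cycle genes homology region, or CHR, and CCAAT boxes often lie in the same promoters. Cardiomyocytes leave the cell cycle as they mature, while muscle cells made from stem cells still divide at a low rate in the first weeks. CCND1 and MYC are known targets of canonical Wnt signalling in many cell types.

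The sequences upstream of the members show the difference between the groups of genes. RefSeq promoter entries (assembly GRCh38.p14, 250 bases before to 50 after the transcription start) were found for 12 licensing and S genes (16 entries) and 18 G2 and M genes (21 entries). A CHR, spelled TTTGAA or TTCGAA on either strand, lay in 61.9% of the G2 and M entries, in 12.5% of the licensing and S entries and in 16.4% of all 35116 entries of the table. A CCAAT box, spelled CCAAT on either strand, lay in 95.2%, 75% and 34.6%, and both motifs together lay in 61.9%, 12.5% and 6.38%, in the same order. An E2F site, spelled TTTCCCGC, TTTCGCGC, TTTGCCGC or TTTGGCGC on either strand, lay in 14.3%, 56.2% and 3.31%. These matches are letters in a window and do not show binding. The 150 bases before the start are printed 5′ to 3′ on the strand of the gene for 4 mitotic genes with a CHR and 3 licensing or S genes with an E2F site, with every match in capitals.
CCNB2 (chr15:59104996-59105145, plus strand): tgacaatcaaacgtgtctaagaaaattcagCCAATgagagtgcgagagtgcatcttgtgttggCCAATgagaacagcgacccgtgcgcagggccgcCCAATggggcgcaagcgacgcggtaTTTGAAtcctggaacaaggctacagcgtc
CDC20 (chr1:43358831-43358980, plus strand): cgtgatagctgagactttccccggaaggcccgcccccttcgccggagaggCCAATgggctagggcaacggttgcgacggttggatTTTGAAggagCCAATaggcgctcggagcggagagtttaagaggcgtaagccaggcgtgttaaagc
PLK1 (chr16:23678739-23678888, plus strand): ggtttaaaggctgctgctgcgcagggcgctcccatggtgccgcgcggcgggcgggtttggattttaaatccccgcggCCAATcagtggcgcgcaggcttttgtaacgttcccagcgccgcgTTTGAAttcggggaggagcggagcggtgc
MKI67 (chr10:128126424-128126573, minus strand): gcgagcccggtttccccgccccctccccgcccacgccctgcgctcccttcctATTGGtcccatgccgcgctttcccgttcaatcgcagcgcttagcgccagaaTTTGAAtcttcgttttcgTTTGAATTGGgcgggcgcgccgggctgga
MCM6 (chr2:135876444-135876593, minus strand): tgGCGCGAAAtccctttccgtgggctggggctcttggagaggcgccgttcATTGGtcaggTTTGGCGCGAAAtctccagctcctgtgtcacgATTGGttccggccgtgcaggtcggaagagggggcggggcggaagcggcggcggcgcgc
CDT1 (chr16:88803639-88803788, plus strand): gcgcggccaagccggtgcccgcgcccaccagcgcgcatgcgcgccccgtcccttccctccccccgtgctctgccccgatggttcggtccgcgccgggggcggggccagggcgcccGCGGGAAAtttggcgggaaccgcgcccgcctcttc
GINS2 (chr16:85688955-85689104, minus strand): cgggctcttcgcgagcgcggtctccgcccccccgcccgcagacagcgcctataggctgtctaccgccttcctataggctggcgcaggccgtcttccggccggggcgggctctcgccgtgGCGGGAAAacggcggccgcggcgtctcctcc
In MKI67 the second CHR runs into a CCAAT box read on the other strand, and they share a base. In MCM6 a pair of E2F matches also overlaps. CCNB2, CDC20 and PLK1 have a single CHR within this window, with CCAAT boxes upstream or downstream of it.

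The libraries held 5683 cells at day 11, 4015 with DMSO and 5607 with CHIR, with 75906387, 65675862 and 81076689 unique molecular identifiers (UMIs, each a counted transcript). The median cell had 12689, 15250 and 12687 UMIs, ribosomal protein genes took 15.4%, 25.2% and 33.2% of all UMIs, and pairs of libraries shared 3 to 6 cell barcodes. Cells were put into classes by the share of their UMIs from fixed marker lists. Muscle-gated cells, with at least 50 UMIs per 10000 from 8 sarcomere genes such as TNNT2 and TTN, were 3275 cells at day 11 (57.6%), 1896 with DMSO (47.2%) and 1362 with CHIR (24.3%). Mesenchymal-gated cells, with at least 12 per 10000 from 8 genes such as COL1A1, LUM and POSTN, were 1279 (22.5%), 1581 (39.4%) and 3585 (63.9%). Cells over both thresholds were kept apart (727, 240 and 332 cells). Such a class is a range and not a type: 191, 203 and 97 cells lay within 25% of the muscle threshold, and 679, 399 and 442 within 25% of the mesenchymal one. All 8 muscle markers were detected in muscle-gated cells of each library, summing to 15141 to 21476 CPM (UMIs scaled to a total of 1000000). These genes set the gate, so a high sum was fixed in advance. The median muscle-gated cell had 4.1, 2.06 and 2.84 UMIs per 10000 of mesenchymal markers at day 11, with DMSO and with CHIR, and 1.94, 5.03 and 8.15 of smooth muscle markers. Summed over muscle-gated cells, sinus node markers were at 128, 101 and 32.2 CPM, epicardial markers at 11.9, 26.4 and 7.59, and endoderm markers at 138, 99.6 and 20.6. All 4 sinus node and all 5 epicardial markers were detected in each library, while AFP, FGB and FOXA2 were at 0 with CHIR and FOXA2 with DMSO. The part of these differences in the results was not tested.

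Muscle-gated cells held more transcripts of mitotic genes at day 15 with DMSO than at day 11 or with CHIR. The 23 G2 and M genes summed to 719 CPM at day 11 (exact Poisson 95% interval 711 to 728), 1380 with DMSO (1366 to 1395) and 850 with CHIR (837 to 863). The 15 licensing and S genes summed to 204, 335 and 325 CPM, and the G1 entry genes to 95.7, 104 and 287. PTTG1 (securin, the inhibitor of separase) and HMGB2 (a chromatin protein abundant in dividing cells) made up 42.2%, 38.9% and 26.3% of the UMIs of the G2 and M sum. Without them the other 21 genes summed to 415, 843 and 626 CPM, in the same order of libraries. In mesenchymal-gated cells the order was different, with G2 and M sums of 1478 CPM at day 11, 1080 with DMSO and 1408 with CHIR.

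**Figure D1:**
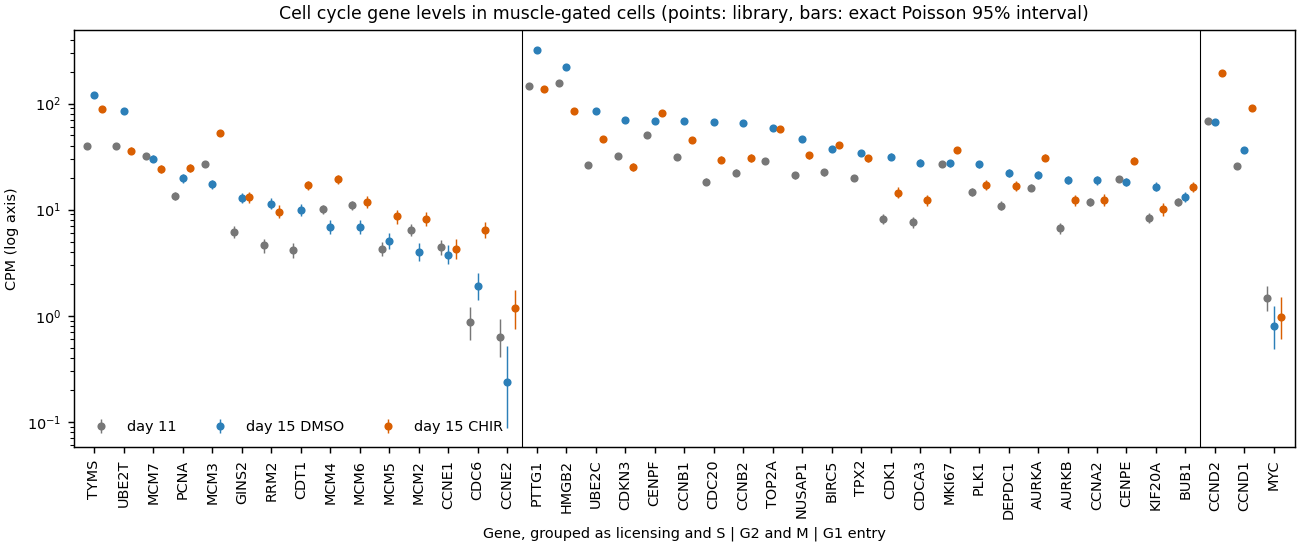
Level of each cell cycle gene in muscle-gated cells of the 3 libraries, in CPM on a log axis, with exact Poisson 95% intervals as bars. DMSO points lie above the day 11 and CHIR points for genes such as PTTG1 (318 against 148 and 138), while CHIR points are the highest for MCM3, CDC6, CCND1 and CCND2.

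The share of cells carrying a mitotic program was set by genes outside the 41. Each cell was thinned to 5000 UMIs, and a cell with at least 5 UMIs from 31 other G2 and M genes (HMMR, NUF2, KIF11 and others) was put in the G2 and M gate. A cell outside that gate with at least 5 UMIs from 20 other S phase genes (UHRF1, DTL, HELLS and others) was put in the S gate. Cells under 5000 UMIs were left out, which removed 125, 64 and 19 muscle-gated cells at day 11, with DMSO and with CHIR. In muscle-gated cells the G2 and M gate held 4.76% at day 11 (150 of 3150 cells, exact binomial interval 4.04 to 5.56). It held 9.99% with DMSO (183 of 1832 cells, interval 8.65 to 11.5). With CHIR it held 8.94% (120 of 1343 cells, interval 7.46 to 10.6). The day 11 share lay below both day 15 shares, whose intervals overlapped. Without thinning the shares were 6.38%, 13.0% and 15.6%, and DMSO and CHIR stood in the opposite order. The CHIR share also lay above its interval when cells were thinned without mitochondrial and ribosomal protein genes, an alternative chosen after seeing the data. The S gate alone held 5 muscle-gated cells at day 11 (0.159%, 0.0516 to 0.370), 6 with DMSO (0.328%, 0.120 to 0.711) and 28 with CHIR (2.08%, 1.39 to 2.999). Over all classes of a library, 86, 81 and 180 cells had 4 or 5 UMIs of the G2 and M list, next to the threshold. For the S list 166, 118 and 301 cells did. At least 5 UMIs of the S list were held by 222, 194 and 500 cells, of which 70, 71 and 234 lay in the S gate. The others passed both lists and were counted in the G2 and M gate. These gates count transcripts, also those from free RNA in a droplet, whose part was not tested, and do not by themselves show division.

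In mesenchymal-gated cells the G2 and M gate held 191 cells at day 11 (15.0%, 13.1 to 17.1), 132 with DMSO (8.35%, 7.04 to 9.83) and 513 with CHIR (14.3%, 13.2 to 15.5). Cells under every marker threshold had the highest shares in all 3 libraries, at 21.8%, 14.2% and 26.0%. Cells over both the muscle and the mesenchymal threshold had 3.39%, 4.64% and 7.55%.

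**Figure D2:**
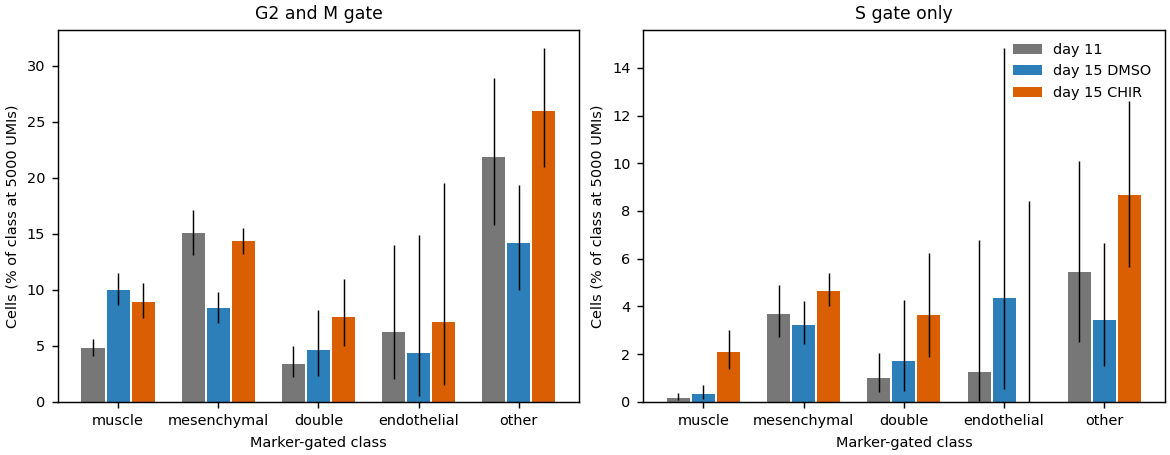
Share of cells in the G2 and M gate (left) and in the S gate alone (right), in percent of the cells of a class with at least 5000 UMIs, with exact binomial 95% intervals. Among muscle-gated cells day 11 is lowest in the G2 and M gate (4.76%) and CHIR is highest in the S gate (2.08%), and mesenchymal-gated cells of the DMSO library are lower in the G2 and M gate (8.35%) than those of day 11 and CHIR.

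The G2 and M members followed the G2 and M gate. No member was used to draw the gates, but this gate was drawn from other genes of the same phase. High folds of G2 and M members were thus favoured by its making. Among muscle-gated cells, those in the G2 and M gate held a median of 64.7 times the level of a G2 and M member found in cells of neither gate at day 11, 56.2 times with DMSO and 33.7 times with CHIR. DEPDC1, a gene of mitotic progression, had the highest of these folds in each library (158, 119 and 65.8). The lowest were HMGB2 at day 11 (15.6), PTTG1 with DMSO (13.8) and AURKA with CHIR (10.0). These shares were taken over muscle-gated cells with at least 5000 UMIs. For the median G2 and M member, gated cells held 79.2%, 87.0% and 77.6% of its UMIs, while they held 5.55%, 11.6% and 9.64% of the UMIs of all genes. Most UMIs of the median member in these muscle-gated cells thus came from a small set of cells.

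The licensing and S members had lower median folds, at 3.74, 6.84 and 3.35 between gated cells and cells of neither gate, but single members differed widely. Cells of the S gate were left out of these folds, and the G2 and M gate was drawn from G2 and M genes. How evenly the UMIs were spread over cells was not tested. RRM2, the regulated subunit of ribonucleotide reductase, was 30.4, 37.2 and 12.03 times higher in gated cells. CDC6, from few UMIs, was 35.8, 27.1 and 5.69 times higher, and CDT1 23.2, 24.9 and 6.04 times. At day 11 and with DMSO these 3 folds were above those of the G2 and M member HMGB2 (15.6 and 19.0). MCM6 and MCM3, helicase subunits of the MCM ring, were 1.53, 1.77 and 1.99 times and 1.98, 3.21 and 1.97 times higher. The D cyclins did not share these folds. In gated cells CCND1 stood at 0.914, 0.487 and 0.647 times its level in cells of neither gate, and CCND2 at 0.695, 0.600 and 0.732 times. The day 11 interval of CCND1 included 1 (0.671 to 1.22). Gated muscle cells had a median of 13736, 14269 and 15676 UMIs against 11557, 13027 and 14285 in neither gate.

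The comparison of day 15 DMSO with day 11 asks how the genes stood in muscle at the later day without CHIR. Of the 23 G2 and M genes, 17 were at least 1.5-fold higher with DMSO and 0 were at least 1.5-fold lower, where 8.67% and 53% of 17964 genes were (all with at least 20 UMIs over the pair). The median log2 ratio of the group was 1.01, against -0.67 over all genes. The median of all genes was far from 0, and with TMM factors (edgeR), which centre the libraries, it was -0.08. With these factors 22 of 23 were higher and 0 lower, where 25.9% and 33.2% of all genes were. CDK1, the kinase that drives entry into mitosis, was at 8.15 CPM at day 11 and 31.5 with DMSO, 3.87-fold higher (3.39 to 4.43). CDC20, an activator of the anaphase-promoting complex, was at 18.3 and 67.4 CPM (3.68-fold, 3.36 to 4.02). CDCA3, a factor for mitotic entry, was 3.64-fold higher (3.17 to 4.19), and UBE2C, the ubiquitin-conjugating enzyme of the anaphase-promoting complex, 3.17-fold (2.94 to 3.41). CCNB2 and CCNB1, the B cyclins that partner CDK1, were 2.95-fold (2.72 to 3.21) and 2.18-fold (2.02 to 2.35) higher. The 6 genes within 1.5-fold were CENPE (0.942), MKI67 (1.02), BUB1 (1.11), AURKA (1.30), CENPF (1.36) and HMGB2 (1.40).

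Of the 15 licensing and S genes, 6 were at least 1.5-fold higher with DMSO and 4 were lower, where 8.67% and 53% of 17964 genes were. Their median log2 ratio was 0.25, against -0.67 over all genes. TYMS (thymidylate synthase, 3.07-fold, 2.89 to 3.27), RRM2, CDT1, CDC6, GINS2 and UBE2T (a ubiquitin-conjugating enzyme of the Fanconi DNA repair pathway) were 2.11-fold to 3.07-fold higher with DMSO. MCM2, MCM3 and MCM6 were lower, at 0.627, 0.650 and 0.620 times the day 11 level, and MCM4 was at 0.675, just within 1.5-fold. CCNE2, a cyclin E, was at 0.377 times, from 6 UMIs with DMSO and 24 at day 11. With TMM factors 8 genes were higher and 1 lower in place of 6 and 4, where 25.9% and 33.2% of all genes were. Without muscle-gated cells that held any UMI of epicardial or sinus node markers 0 were lower. Of the G1 entry genes, CCND2 (0.978) and CCND1 (1.43) were within 1.5-fold, and MYC was at 0.538 times, from 20 UMIs with DMSO and 56 at day 11.

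Within the G2 and M gate the difference between day 11 and DMSO was smaller. Among the 150 and 183 gated muscle cells, 5 of 23 G2 and M genes were higher with DMSO and 3 were lower, where 6.67% and 52.1% of 11972 genes were, and the median log2 ratio was 0.00 against -0.64 over all genes. CDK1 (106 CPM at day 11 and 235 with DMSO), CDC20, CDCA3, UBE2C and CCNB2 were higher in the gate too, all 5 of them among the 17. The gated cells are part of all muscle-gated cells, so this overlap is no separate support. MKI67 (403 and 204 CPM, 0.506-fold), CENPE (268 and 130 CPM, 0.483-fold) and BUB1 (0.615-fold), a kinase of the spindle checkpoint, were lower. No centred scaling was run for the cells split by gate. In cells of neither gate 9 of the 23 genes were higher and 0 lower, where 8.52% and 53.4% of all genes were.

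**Figure D3:**
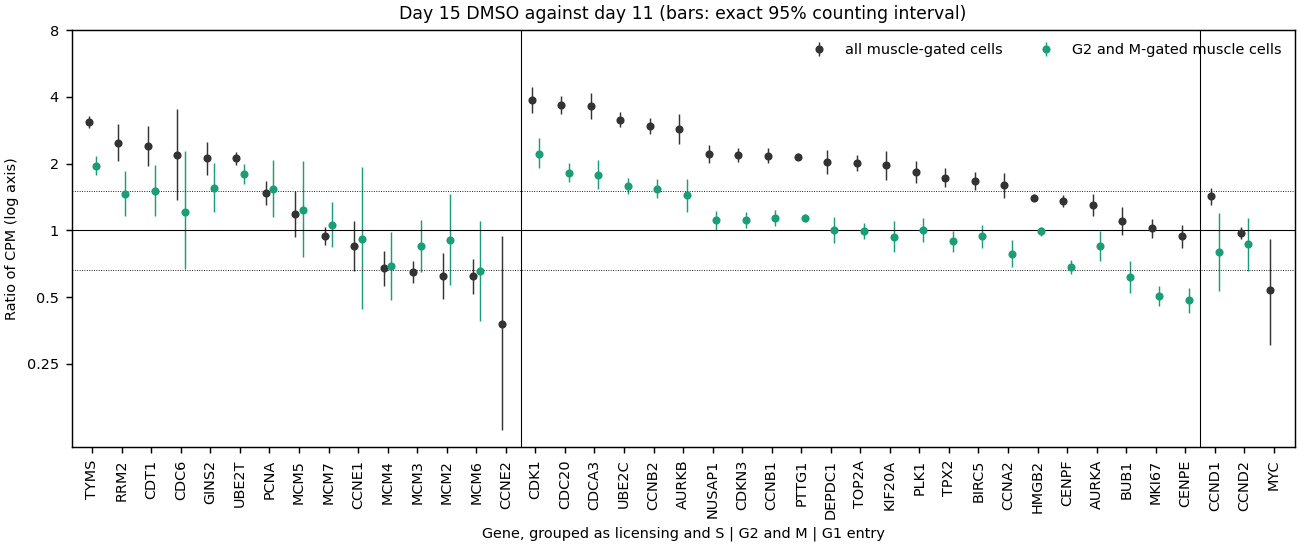
Ratio of levels, day 15 DMSO over day 11, for each gene on a log axis, in all muscle-gated cells and in those of the G2 and M gate, with exact 95% counting intervals; dotted lines mark 1.5-fold. Most G2 and M genes lie above 1.5 over all muscle-gated cells and between the lines within the gate, with MKI67 and CENPE below them.

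The comparison of CHIR with DMSO at day 15 asks how the genes stood in muscle cells when Wnt signalling was activated. It shares the DMSO library with the comparison above. Licensing genes and D cyclins were higher with CHIR, and many mitotic genes were lower. Of the 15 licensing and S genes, 8 were at least 1.5-fold higher and 1 lower, and of the 23 G2 and M genes 1 was higher and 12 were lower, where 20.6% and 26.1% of 15840 genes were higher and lower. The median log2 ratios were 0.76 and -0.62, against -0.02 over all genes. Without muscle-gated cells that held any UMI of epicardial or sinus node markers (836 CHIR and 792 DMSO cells left), 5 of 14 licensing and S genes were higher and 2 lower, and 0 of 23 G2 and M genes were higher and 14 lower. With the totals taken without mitochondrial and ribosomal protein genes, the median of all genes was 0.17. With these totals 3 G2 and M genes were higher and 8 lower, where 29% and 20.3% of all genes were. The share of called members that were higher then changed from 45.8% to 59.1%.

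Among the licensing factors, 5 of the 6 MCM subunits were higher with CHIR. MCM3 was at 26.7 CPM at day 11, 17.3 with DMSO and 53.2 with CHIR, 3.07-fold higher with CHIR than with DMSO (2.75 to 3.44). MCM4 was at 10.1, 6.82 and 19.3 CPM (2.84-fold, 2.37 to 3.41). MCM2, MCM5 and MCM6 were 2.03-fold (1.58 to 2.63), 1.70-fold (1.35 to 2.15) and 1.72-fold (1.41 to 2.11) higher. MCM7 was at 32.0, 30.2 and 24.0 CPM and at 0.794 times its DMSO level (0.707 to 0.890). The loaders CDC6 (0.868, 1.90 and 6.47 CPM, 3.399-fold, 2.43 to 4.83) and CDT1 (4.15, 9.99 and 16.9 CPM, 1.69-fold, 1.43 to 1.998) were higher. For CDC6 and CDT1 the CHIR level was the highest of the 3 libraries and the day 11 level the lowest.

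PCNA, GINS2, RRM2 and TYMS, which act in DNA synthesis, were within 1.5-fold, while UBE2T was lower and CCNE2 higher. PCNA, the sliding clamp of the polymerases, was at 13.4, 19.7 and 24.8 CPM at day 11, with DMSO and with CHIR (1.26-fold with CHIR over DMSO, 1.11 to 1.43). GINS2, part of the replicative helicase, was 1.01-fold (0.855 to 1.19), RRM2 0.837-fold (0.694 to 1.01) and TYMS 0.727-fold (0.685 to 0.770). UBE2T was at 39.8, 84.1 and 36.0 CPM, lower with CHIR at 0.428 times the DMSO level (0.393 to 0.466). CCNE1 was 1.13-fold (0.836 to 1.53). CCNE2 rested on 24 UMIs with CHIR and 6 with DMSO (4.94-fold, 1.97 to 14.8).

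The D cyclins, which open the way from G1 to S, were higher with CHIR. CCND2 was at 68.7, 67.2 and 196 CPM at day 11, with DMSO and with CHIR, 2.92-fold higher with CHIR over DMSO (2.75 to 3.09). CCND1 was at 25.6, 36.5 and 89.8 CPM (2.46-fold, 2.27 to 2.67). For both cyclins day 11 and DMSO lay within 1.5-fold of each other and CHIR stood above both. MYC, a transcription factor that drives growth, was at 1.47, 0.793 and 0.980 CPM, from 56, 20 and 20 UMIs, and its ratio of 1.24 (0.631 to 2.42) was not told apart from 1 at this depth.

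Of the mitotic genes, 12 were at least 1.5-fold lower with CHIR. CDKN3, a phosphatase that acts on CDK1 and CDK2, was at 31.8 CPM at day 11, 69.6 with DMSO and 25.03 with CHIR, 0.359 times the DMSO level (0.325 to 0.397). HMGB2 was at 156, 219 and 85.9 CPM (0.392, 0.371 to 0.413) and PTTG1 at 148, 318 and 138 CPM (0.434, 0.415 to 0.453). For these 3 genes the CHIR level was also below day 11.

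CDC20 (18.3, 67.4 and 29.5 CPM, ratio 0.438, 0.399 to 0.481) and CDK1 (8.15, 31.5 and 14.5 CPM, ratio 0.460, 0.401 to 0.526) stood between day 11 and DMSO. CDCA3 (0.443), CCNB2 (0.466), UBE2C (0.547), KIF20A (0.613), PLK1 (0.633), AURKB (0.636) and CCNA2 (0.652) were lower as well. KIF20A is a kinesin of cytokinesis, PLK1 and AURKB are mitotic kinases and CCNA2 is the A cyclin of S phase and G2. CCNB1, at 0.667, lay at the 1.5-fold limit on the inner side.

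The other mitotic genes were within 1.5-fold or higher. CENPE, the kinesin that aligns chromosomes, was at 19.4, 18.3 and 29.0 CPM and was the single G2 and M gene at least 1.5-fold higher (1.59-fold, 1.40 to 1.80). AURKA, the kinase of the spindle poles, was 1.46-fold (1.30 to 1.64) and MKI67, which coats mitotic chromosomes, 1.32-fold (1.19 to 1.47). TOP2A, the topoisomerase that untangles DNA, was at 58.4 and 57.8 CPM (0.991-fold, 0.917 to 1.07). BUB1, CENPF, BIRC5, TPX2, DEPDC1 and NUSAP1 ranged from 0.698 to 1.24.

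Among the members the ratio went with the length of the gene. Over all 41 of them Spearman's rho between the log2 ratio and the genomic length of the gene was 0.46, against 0.18 over 13744 genes. HMGB2, CDC20, UBE2C, CDCA3 and PTTG1 span 2983 to 6890 bases, and MKI67, BUB1, CENPF and CENPE 29765 to 92533, while CDKN3, with the lowest ratio of the mitotic genes, spans 23212. For DMSO over day 11 rho was -0.32 over the members and -0.62 over 14923 genes. The correlations describe genes of shared libraries, and the part of length in the ratios was not tested.

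Split by gate, the lower mitotic genes were lower inside the G2 and M gate, and the higher licensing genes also outside it. Among 120 CHIR and 183 DMSO muscle cells in the gate, 12 of 23 G2 and M genes were lower and 1, CENPE, was higher, where 17.9% and 24.2% of 10904 genes were. Of the 12 lower genes, 11 were the same as over all muscle-gated cells. The gated cells are part of that set. Among muscle-gated cells with at least 5000 UMIs they held 87.0% (DMSO) and 77.6% (CHIR) of the UMIs of the median G2 and M member. The overlap is thus no separate support. PTTG1 stood at 739 CPM in gated CHIR cells and 1771 in gated DMSO cells (0.418, 0.394 to 0.443), and CDKN3 at 177 and 467 (0.378, 0.335 to 0.425). CENPE was at 238 and 130 CPM (1.84-fold, 1.60 to 2.11). In gated cells of day 11, CDKN3 was at 418 CPM and CENPE at 268. Of the licensing and S genes, MCM3, MCM4, MCM6 and CDC6 were higher in the gate and TYMS, RRM2 and UBE2T lower.

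Across the 3 libraries, the gated DMSO muscle cells stood apart in CDK1 and CENPE. CDK1 was at 106, 235 and 113 CPM in gated cells of day 11, DMSO and CHIR, and CDC20 at 274, 499 and 239, highest with DMSO. CENPE was at 268, 130 and 238 CPM and MKI67 at 403, 204 and 298, lowest with DMSO. TOP2A was at 452, 450 and 480 CPM. In gated mesenchymal cells CENPE (102, 43.8 and 167 CPM) and MKI67 (191, 76.4 and 273) were also lowest with DMSO. CDK1 (285, 364 and 217 CPM) and CDC20 (210, 470 and 254) were also highest with DMSO there. These levels were not centred between libraries.

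In muscle cells of neither gate, 9 of 14 licensing and S genes with enough UMIs were higher with CHIR and 1 was lower, and 8 of 23 G2 and M genes were higher and 4 lower, where 21.5% and 26.1% of 15482 genes were. CDC6 stood at 0.410 CPM in DMSO cells and at 3.41 in CHIR cells (8.31-fold, 4.1 to 19.0), and CDT1 at 2.50 and 10.0 (4.01-fold, 2.95 to 5.53). MCM3 was at 44.8 and 13.2 CPM (3.41-fold, 2.97 to 3.91), with 25.2 at day 11. TOP2A (12.3 and 5.19 CPM, 2.38-fold), MKI67 (7.87 and 3.37 CPM, 2.34-fold) and BUB1 (2.34-fold) were higher, while HMGB2 (0.452), CDKN3 (0.484), PTTG1 (0.572) and CDC20 (0.635) were lower here too. CCND1 (2.40-fold) and CCND2 (2.85-fold) were higher in neither gate, and in the G2 and M gate as well (3.19-fold and 3.48-fold).

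**Figure D4:**
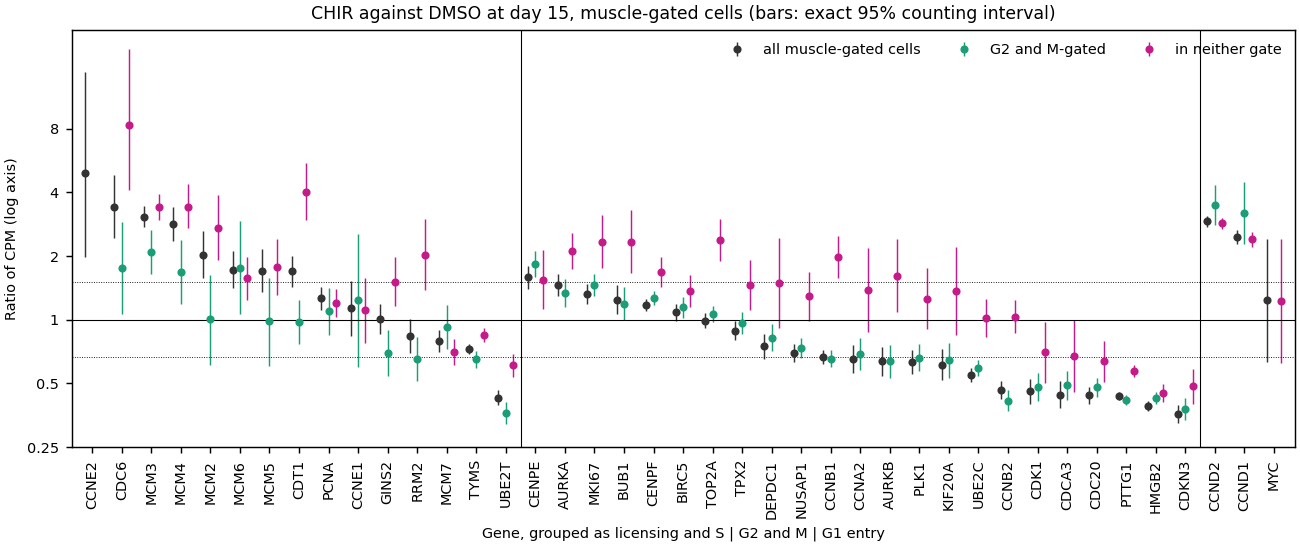
Ratio of levels, CHIR over DMSO at day 15, for each gene on a log axis in all muscle-gated cells, in the G2 and M gate and in neither gate, with exact 95% counting intervals; dotted lines mark 1.5-fold. CDKN3, HMGB2 and PTTG1 lie below the lower line in all 3 sets of cells, and MCM3, CDC6, CCND1 and CCND2 lie above the upper line in all 3. The set of all muscle-gated cells contains the other sets.

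Mesenchymal-gated cells differed from muscle-gated cells in their mitotic genes. With CHIR over DMSO, 11 of 23 G2 and M genes were higher and 0 lower, and 6 of 15 licensing and S genes were higher and 1 lower, where 32.5% and 24.3% of 16762 genes were. MKI67 was at 38.0 CPM at day 11, 10.9 with DMSO and 59.7 with CHIR (5.50-fold with CHIR over DMSO, 4.90 to 6.18). CENPE was at 21.5, 6.81 and 36.1 CPM (5.30-fold, 4.59 to 6.16). CENPF, a kinetochore protein, was 3.48-fold (3.27 to 3.71) and TOP2A 3.16-fold higher (2.95 to 3.38). For MKI67 and CENPE, DMSO was the lowest of the 3 libraries and CHIR the highest.

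MCM3 (3.93-fold, 3.49 to 4.44) and MCM4 (2.97-fold, 2.58 to 3.43) were higher in mesenchymal-gated cells as in muscle, and so were CCND2 (329, 195 and 562 CPM, 2.88-fold, 2.80 to 2.96) and CCND1 (1.75-fold, 1.63 to 1.88). CCNE1 was lower, at 13.8, 13.0 and 6.06 CPM (0.465, 0.399 to 0.542). CDKN3 (0.687), HMGB2 (0.720) and PTTG1 (0.856) were within 1.5-fold. Among the 513 CHIR and 132 DMSO mesenchymal-gated cells in the G2 and M gate, CDKN3 (0.460), CDC20 (0.541), PTTG1 (0.565) and HMGB2 (0.569) were lower, and CENPE (3.82-fold), MKI67 (3.58-fold) and CENPF (2.31-fold) were higher. There 7 of the 23 genes were higher and 7 lower, where 35.2% and 19.1% of 12639 genes were. The class did not hold the same cells in both libraries: epicardial markers summed to 289 CPM with DMSO and 77.3 with CHIR, smooth muscle markers to 2603 and 529, and neural markers to 130 and 9.02. All 5 epicardial and all 4 smooth muscle markers were detected in both, and SOX10 was not listed in the DMSO table. The part of these cells in the ratios was not tested.

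**Figure D5:**
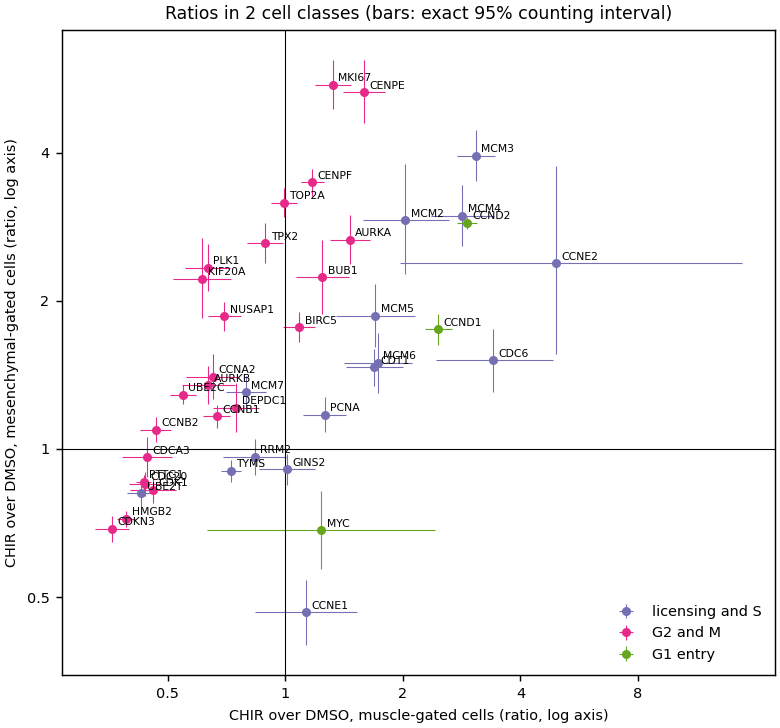
Ratio of levels, CHIR over DMSO, in mesenchymal-gated cells (vertical) against muscle-gated cells (horizontal), on log axes, with exact 95% counting intervals and colours for the 3 groups of genes. MCM3, MCM4 and CCND2 lie high on both axes, KIF20A and PLK1 lie low in muscle and high in mesenchymal cells, and CDKN3 and HMGB2 lie below 1 on both.

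With DMSO over day 11 in mesenchymal-gated cells, 1 of 23 G2 and M genes was higher (CDC20, 1.60-fold, 1.48 to 1.73) and 9 were lower, where 8.37% and 51.2% of 16873 genes were. Of the licensing and S genes 0 were higher and 5 lower. MCM2 (0.220, 0.168 to 0.286), MKI67 (0.286, 0.25 to 0.325) and CENPE (0.317, 0.267 to 0.374) were the lowest. The median log2 ratios of the G2 and M and the licensing and S genes were -0.53 and -0.30, against -0.62 over all genes. CCND1 (0.535), CCND2 (0.594) and MYC (0.644) were lower.

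Compared within a library, mesenchymal-gated cells held more of most members than muscle-gated cells at day 11 and with CHIR. At day 11, 32 of 41 members were higher in mesenchymal cells and 0 lower, where 19.7% and 39% of 19017 genes were, and with CHIR 26 were higher and 1, CCND1, was lower, where 24.6% and 24.7% of 16524 genes were. With DMSO 10 were higher and 12 lower, where 20.8% and 34.6% of 16462 genes were. CDK1 was higher in mesenchymal cells in every library (7.34-fold, 1.94-fold and 3.47-fold), and so was MYC (7.95-fold, 9.51-fold and 5.26-fold). KIF20A (0.302), CENPE (0.373) and MKI67 (0.395) were lower in mesenchymal cells with DMSO.

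Over whole libraries, where a change in the mix of cell types and a change within a type cannot be told apart, more mitotic genes were higher than lower. With CHIR over DMSO, 8 of 15 licensing and S genes were higher and 2 lower, and 8 of 23 G2 and M genes were higher and 3 lower, where 25.4% and 26.1% of 18785 genes were. The share of mesenchymal-gated cells was 63.9% with CHIR and 39.4% with DMSO. MCM3 (3.26-fold), CCND2 (3.24-fold), MCM4 (3.08-fold), MKI67 (2.91-fold) and CENPE (2.88-fold) were the highest. CDKN3 (0.572), HMGB2 (0.610), CCNE1 (0.615), PTTG1 (0.620) and UBE2T (0.636) were lower.

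A list of 57 further regulators of the cycle, none of them a member, was read in the same way. In muscle-gated cells with CHIR over DMSO, 18 of the 54 measured were higher and 7 lower, where 20.6% and 26.1% of all genes were. Among the genes with at least 100 UMIs, the highest were MCM10 (3.48-fold, 2.32 to 5.35) and GINS1 (3.45-fold, 2.31 to 5.27), both factors of origin firing, CDC25A, a phosphatase that activates CDK2 (2.72-fold), and the repressor E2F8 (2.36-fold). MCM10, GINS1 and E2F8 also belonged to the S gate list. The lowest were LIN37, a MuvB subunit needed for repression by DREAM (0.435, 0.364 to 0.517), CDKN2D, an inhibitor of CDK4 and CDK6 (0.438, 0.371 to 0.516), PKMYT1, an inhibitory kinase of CDK1 (0.518), and the E2F partner TFDP2 (0.534). Of 10 E2F genes and partners, 6 were higher and 1 lower, where 20.6% and 26.1% of all genes were. The intervals of 2 of the 6 included 1: E2F2 (17 and 10 UMIs, 0.909 to 5.13) and E2F7 (25 and 20 UMIs, 0.824 to 2.93), named here after their values were seen.

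With DMSO over day 11 in muscle, 11 of 54 regulators were higher and 21 lower, where 8.67% and 53% of all genes were. CDKN2D (5.07 and 22.4 CPM, 4.41-fold, 3.73 to 5.21) and CDKN1A, the inhibitor p21 (12.6 and 31.0 CPM, 2.47-fold, 2.20 to 2.77), were the highest with at least 100 UMIs, before TTK, a checkpoint kinase (2.36-fold), and FBXO5, an inhibitor of the anaphase-promoting complex (2.04-fold). TTK also belonged to the G2 and M gate list. E2F3 (0.215), the origin binder ORC2 (0.229), the MuvB subunit LIN54 (0.274) and RBL1, the pocket protein p107 (0.281), were the lowest, where the median of all genes was -0.67 on the log2 scale. All 3 pocket protein genes were at least 1.5-fold lower, as were 53% of all genes. No centred scaling was run for the regulators. CDKN1A was at 67.2 CPM with CHIR, 2.17-fold higher than with DMSO (1.98 to 2.37), a gene named here after its values were seen.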

How the data were processed

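Live cells sorted by exclusion of DAPI were made into 3′ droplet libraries, per the labels' protocols, which name day 15 for the day 11 sample too. The authors deposited tables of unnormalised UMI counts (whole numbers for each gene in each cell), made with Cell Ranger 6.1.1 on GRCh38 per the submitters' processing notes. No column of other samples was present (0). The members, gene lists and tests were chosen with earlier results of these data known, and the class thresholds (muscle 50, mesenchymal 12, endoderm 15, endothelial 8 UMIs per 10000) after their spread was seen. For each class the UMIs of a gene were summed across cells, then divided by the class's total UMIs. Ratios have exact conditional binomial 95% intervals, and 0.5 was added to both counts before taking log2. A gene counted as higher or lower at 1.5-fold with at least 20 UMIs over the pair. All 41 members could be named, and of 57 regulators the 4 highest and 4 lowest called with at least 100 UMIs. Cells were thinned at random (seed 1). Scrublet (scanpy 1.11.5, rate 0.06) called 220 DMSO cells (5.48%), but 1 at day 11 and 0 with CHIR, where it did not work, so all cells were kept in every library. The computation was tested on simulated data. Python 3.11.15, scipy 1.17.1, and edgeR 4.0.16 in R 4.3.3 for TMM factors were used. The alternatives were other totals, UMI minimums, thresholds, thinning depths, doublet removal and cell exclusions.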

Additional observations from a re-analysis of the deposited data

Results flagged for a closer look

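The mitotic kinase PLK1 and the cytokinesis kinesin KIF20A stood at least 1.5-fold apart between CHIR and DMSO in opposite directions in the muscle-gated and mesenchymal-gated cells. KIF20A was at 0.613 times the DMSO level in muscle-gated cells and at 2.22 times in mesenchymal-gated cells. PLK1 was at 0.633 and 2.33 times. With 1 library per group the difference between the classes was not tested.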

How the results depend on the processing

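No paired analysis was possible because each group of the comparisons had 1 library. No member that counted as higher or lower changed direction under any alternative run. Within an alternative at most 4 of the 41 members came under the 1.5-fold limit, and at most 8 passed it anew. For CHIR over DMSO in muscle-gated cells, the number of G2 and M genes higher was 1, and 3 without mitochondrial and ribosomal protein genes in the totals, 2 with TMM factors, 2 with the mean of per-cell CPM and 2 with the muscle threshold multiplied by 2. Of all genes 20.6% were higher in the main run, 29% without mitochondrial and ribosomal protein genes and 22.9% with TMM factors. Without muscle-gated cells that had any UMI of epicardial or sinus node markers (836 CHIR and 792 DMSO cells left) the number of G2 and M genes higher was 0. There licensing and S genes were 5 higher and 2 lower in place of 8 and 1. For DMSO over day 11, licensing and S genes lower were 4, and 1 without mitochondrial and ribosomal protein genes, 1 with TMM factors and 0 without cells with such a UMI. The share of all genes lower was 53% in the main run, 45.5% without mitochondrial and ribosomal protein genes and 33.2% with TMM factors. Over whole libraries without mitochondrial and ribosomal protein genes, 0 licensing and S genes and 1 G2 and M gene were lower, in place of 2 and 3. There 21% of all genes were lower, in place of 26.1%. The share of muscle-gated cells in the G2 and M gate at day 11 was 2.94% without cells with such a UMI, 3.33% thinned to 2500 UMIs and 6.38% without thinning. With DMSO it was 8.55% with the muscle threshold multiplied by 2, 12.02% without cells with such a UMI, 7.70% thinned to 2500 UMIs and 13.0% without thinning. With CHIR it was 6.02% thinned to 2500 UMIs, 15.6% without thinning and 12.1% thinned without mitochondrial and ribosomal protein genes, an alternative chosen after seeing the data. The cause of these changes was not tested. Depth limits CCNE2, MYC and CDC6, whose UMIs in muscle-gated cells were few.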
